A study of Mus musculus with 10 samples.

Results

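The inflammasome, toll-like receptor and IL-1 genes described here are 10 genes measured in interscapular brown adipose tissue (iBAT): *Nlrp3*, *Pycard*, *Casp1*, *Il1b*, *Il18*, *Il1rn*, *Tlr2*, *Tlr4*, *Myd88* and *Tnf*. They were picked by symbol, with earlier results of these data known. All 10 had a row among the 15075 genes with deposited values. Brown fat is the depot that burns fuel for heat, and the study asked what losing cardiolipin, a phospholipid of the inner mitochondrial membrane, does to it. AdCKO mice carried Adipoq-Cre, in which the adiponectin promoter drives Cre recombinase in adipocytes, together with *Crls1* alleles whose exon 4 was floxed on both copies. Control mice were homozygous for the floxed alleles without Cre, and the labels call them wild type. All were C57BL/6 mice aged 20 weeks that lived at room temperature. RNA-seq was made from 5 Control and 5 AdCKO mice, 1 library each. Only adipocytes were targeted, so other cells of the depot kept *Crls1*, the gene for cardiolipin synthase.

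The inflammasome is a protein complex of innate immune cells. Its sensor NLRP3 recruits the adaptor ASC, encoded by *Pycard*, which brings in caspase-1 to cut the precursors of the cytokines IL-1β and IL-18. Toll-like receptors recognise microbial or host molecules at the cell surface or in endosomes and mostly signal through MYD88 to NF-kB, which induces the sensor, the IL-1β precursor and TNF. In fat these genes are best known from macrophages. The antagonist encoded by *Il1rn* occupies the IL-1 receptor without activating it. The control of this system is largely by cleavage and secretion, and neither was measured here.

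Levels are given as normalized reads per kb, that is, reads counted in exons after DESeq2 normalization, divided by the counted exon length. No deposited value is 0 and low values are not whole reads, so they are not plain counts scaled by library and length. A further step before deposit is not named in the sources used here. Whether such a step also changed the ratios and fold changes of low genes was not tested. In Control the coefficient of variation was 6.48% for *Il1b*, 8.36% for *Nlrp3* and 8.63% for *Tnf*. Their means there were 3.77, 5.70 and 6.35 normalized reads per library. Counts of so few reads would vary more, so the SEs and adjusted p of these members may be too small. The same holds for *Il18*, with a coefficient of variation of 12.65% in Control at 6.84 normalized reads per library. Fold changes were taken on log2(value + 1), which understates those of low genes. For *Pycard* the log2 fold change was 1.45 with 0.1 added in place of 1 and 0.73 with 10 added. Members with a mean of at least 10 in both groups were *Casp1*, *Tlr4* and *Myd88*. *Pycard*, *Il18*, *Il1rn* and *Tlr2* reached 10 in AdCKO only, and *Nlrp3*, *Il1b* and *Tnf* in neither group. The main test was limma on log2(value + 1) over 11244 genes whose mean reached 10 in Control or in AdCKO, two-sided, with Benjamini-Hochberg adjusted p under 0.01 as the threshold for a call. By that test 25.6% of the genes tested were called higher in AdCKO and 28% lower. These shares include genes that passed the filter through 1 group alone. The shares among genes with a mean of at least 10 in both groups were not computed. Of the 7 members tested, 6 were called higher and 0 lower, and *Myd88* was not called. The 4 members that passed the filter through AdCKO alone had to differ, so that count carries no weight against the background. Of the 3 members with a mean of at least 10 in both groups, *Casp1* and *Tlr4* were called higher.

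Across all 10 members, 8 had every AdCKO library above every Control library, a pattern found in 24.6% of all 15075 genes and in 24.5% of the genes tested. The exceptions were *Nlrp3* and *Myd88*, whose groups overlapped. An exact two-sided permutation test of 5 libraries against 5 cannot give a p below 0.0079, and the 8 members sat at that limit.

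**Figure D1:**
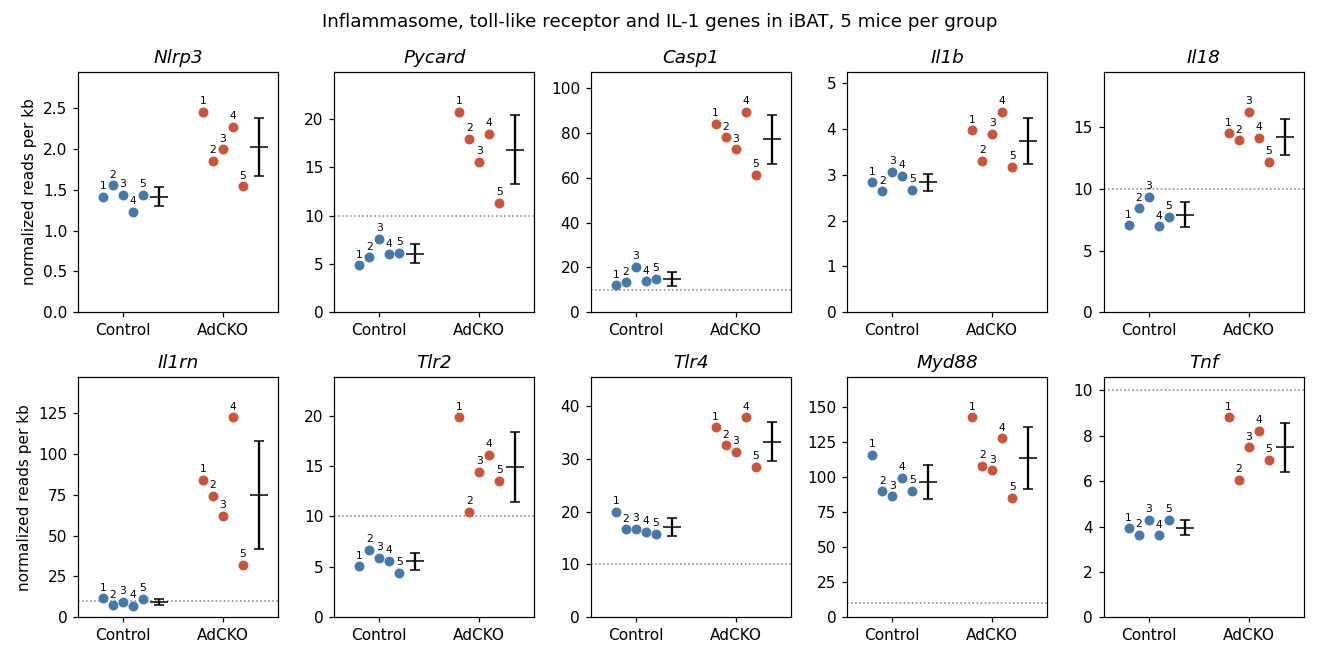
Level of each member in normalized reads per kb (vertical axes from 0, one panel a gene) in 5 Control (blue) and 5 AdCKO (red) libraries, numbered by mouse, with the mean and SD beside the points and a dotted line at 10. AdCKO points lie above all Control points in every panel but *Nlrp3* and *Myd88*, and *Il1rn* in AdCKO spreads from 32.1 to 122.

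Properties of the whole libraries bear on what follows. Among them the targeted gene, *Crls1*, averaged 1060 ± 191 (SD, n = 5) in Control against 217 ± 26.4 in AdCKO (log2 fold change -2.27, adjusted p = 3.53e-08, limma). The summed level of 11 macrophage markers ranged from 702 to 2315 among Control libraries and from 8413 to 11530 among AdCKO libraries, and 11 of 11 markers were called higher. *Lyz2* alone made up 35.6% to 56.2% of that sum. Fibroblast markers were also called higher, 4 of 4. Of 10 brown adipocyte markers, 7 were called lower and 0 higher, but with equal library totals 4 were lower and 2 higher, with quantile normalization 3 were lower and 1 higher, and with the replicate number as a block 5 were lower. Mast cell markers summed to 57.4 to 96.0 among Control libraries and to 121 to 256 among AdCKO libraries, with 3 of 4 called higher and *Kit* lower, and dendritic cell markers to 40.0 to 57.5 and 68.2 to 98.7, with 1 of the 2 tested, *Itgax*, called higher. Skeletal muscle markers summed to 82.0 to 108 in Control, to 114 and 128 in AdCKO 5 and AdCKO 3, and to 5135, 19270 and 7460 in AdCKO 1, AdCKO 2 and AdCKO 4. B cell markers summed to 107 in AdCKO 1 and to at most 22.0 in every other library, and T cell markers to 208 in AdCKO 1 and at most 77.7 elsewhere. Neutrophil markers stayed low, at 8.27 to 9.86 in Control and 13.0 to 18.3 in AdCKO, but only 4 of the 10 listed have a row here. In bulk tissue, a change in the number of cells of a type cannot be told apart from a change in RNA per cell, and the part of any of these cells in the results below was not tested except where values are given.

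Promoter sequences are shown for the 4 called members with the largest fold changes that have an entry, to set members that rose furthest beside *Myd88*, which was not called. They are RefSeq sequences from 250 bases before to 50 bases after the transcript start, each found once, without mismatch, in the mm9 build that the deposited values use. Capitals mark matches, on either strand, to 5 motifs of factors known from macrophage genes: the NF-kB motif, GAGGAA for PU.1, TGANTCA for AP-1, TTNNGCAA for C/EBP and TTCNNNGAA for STAT. Coordinates are on mm9, and sequences run 5′ to 3′ on the gene's strand.
Il1rn, chr2:24192130-24192429, plus strand: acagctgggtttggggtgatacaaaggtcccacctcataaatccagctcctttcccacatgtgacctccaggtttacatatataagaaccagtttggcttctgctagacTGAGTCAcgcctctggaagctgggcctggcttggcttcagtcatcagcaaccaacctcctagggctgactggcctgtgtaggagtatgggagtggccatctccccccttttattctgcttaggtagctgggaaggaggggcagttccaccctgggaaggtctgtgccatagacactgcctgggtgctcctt
Casp1, chr9:5298267-5298566, plus strand: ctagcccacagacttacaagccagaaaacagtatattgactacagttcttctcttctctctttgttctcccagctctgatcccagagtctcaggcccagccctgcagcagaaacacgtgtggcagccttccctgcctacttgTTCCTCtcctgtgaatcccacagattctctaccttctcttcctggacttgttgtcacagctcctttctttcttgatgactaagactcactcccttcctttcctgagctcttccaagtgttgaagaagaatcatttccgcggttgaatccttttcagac
Pycard, chr7:135137332-135137631, minus strand: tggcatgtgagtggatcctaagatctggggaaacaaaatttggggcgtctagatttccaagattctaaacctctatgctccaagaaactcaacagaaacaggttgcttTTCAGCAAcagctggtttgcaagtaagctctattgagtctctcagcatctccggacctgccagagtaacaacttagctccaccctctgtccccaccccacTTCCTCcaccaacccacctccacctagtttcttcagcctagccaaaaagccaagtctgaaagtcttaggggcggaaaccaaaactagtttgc
Tlr2, chr3:83645481-83645780, minus strand: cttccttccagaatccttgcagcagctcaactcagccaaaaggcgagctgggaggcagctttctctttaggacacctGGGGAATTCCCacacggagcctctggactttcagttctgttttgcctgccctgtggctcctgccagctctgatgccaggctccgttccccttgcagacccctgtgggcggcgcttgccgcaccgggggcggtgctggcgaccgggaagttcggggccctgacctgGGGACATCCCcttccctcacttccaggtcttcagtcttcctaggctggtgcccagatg
Myd88, chr9:119249087-119249386, minus strand: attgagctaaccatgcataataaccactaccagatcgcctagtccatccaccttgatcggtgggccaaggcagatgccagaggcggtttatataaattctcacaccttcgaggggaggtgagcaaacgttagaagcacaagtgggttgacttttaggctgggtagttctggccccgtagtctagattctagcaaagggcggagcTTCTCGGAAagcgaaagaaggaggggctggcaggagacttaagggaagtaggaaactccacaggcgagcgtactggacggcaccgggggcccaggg

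The *Il1rn* window held 1 AP-1 match, TGAGTCA, which 7.81% of the 32851 RefSeq promoters searched also hold in some form. The *Casp1* window held 1 PU.1 match and the *Pycard* window 1 PU.1 match and 1 C/EBP match, against 28.3% of promoters for PU.1 and 10.8% for C/EBP. *Tlr2* held 3 NF-kB matches, of which 2 overlap each other in 1 run of capitals, and 8.46% of promoters hold at least 1. *Myd88* held 1 STAT match, against 8.3% of promoters. The other 2 *Il1rn* windows in the RefSeq table, at starts 8431 and 8511 bases downstream, held no match. Of the members not shown, *Nlrp3* held 3 PU.1 matches in the window at the deposited transcript's start and 1 NF-kB match in its other window, *Tnf* held 1 PU.1 match, and *Il1b* and *Il18* held no match. No motif was shared by all members shown, and a match is a run of letters, not a measured binding site.

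The genes of the core inflammasome were all higher in mean level in AdCKO, *Casp1* by the largest factor of the 3. *Casp1*, the protease that matures IL-1β and IL-18 (chr9:5298517-5307281), was measured in Control mice 1 to 5 at 11.9, 13.3, 20.4, 13.8 and 14.8, and in AdCKO mice 1 to 5 at 84.1, 78.1, 72.8, 89.5 and 61.4. The groups were far apart, and the lowest AdCKO library stood well above the highest Control library, Control 3. Means were 14.8 ± 3.27 and 77.2 ± 10.8 (SD, n = 5 each), a ratio of 5.21, and the log2 fold change was 2.32 (SE 0.14, adjusted p = 5.96e-08, limma). Control 3 was also the Control library with the highest sum of macrophage markers.

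*Pycard*, the adaptor that joins sensor and caspase (chr7:135134887-135137381), was at 4.85, 5.70, 7.59, 5.99 and 6.13 in Control and at 20.8, 18.0, 15.6, 18.5 and 11.4 in AdCKO. Every AdCKO library was higher, with AdCKO 5 closest to the Control libraries. The mean rose from 6.05 ± 0.991 to 16.8 ± 3.57 (log2 fold change 1.32, SE 0.16, adjusted p = 1.38e-05, limma).

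*Nlrp3*, the sensor (chr11:59356188-59380458), lay at the bottom of the list in both groups. Its Control values were 1.41, 1.56, 1.44, 1.23 and 1.44 and its AdCKO values 2.46, 1.86, 2.00, 2.27 and 1.54. AdCKO 5 fell within the Control range, and the other 4 AdCKO libraries lay above it. At this level the mean corresponds to 5.70 normalized reads per Control library and 8.15 per AdCKO library, and *Nlrp3* was left out of the main test. The exact permutation p was 0.0159, and the limma fit without a filter, in which 24.7% of all 15075 genes were called higher, gave a log2 fold change of 0.32 (SE 0.074, adjusted p = 0.00311). With quantile normalization in that fit the value was 0.18 (adjusted p = 0.0211), which missed the threshold.

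The 3 components did not keep their proportions. Per length, the level of *Casp1* was 2.30 to 2.69 times that of *Pycard* in the Control libraries and 4.05 to 5.41 times in the AdCKO libraries, without overlap. Against *Nlrp3*, the level of *Casp1* was 8.44 to 14.1 times in Control and 34.3 to 42.0 times in AdCKO. Both ratios rest on low denominators, *Nlrp3* throughout and *Pycard* in Control.

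A further 15 genes of inflammasomes and of pyroptosis, the lytic cell death that follows caspase activation, were listed. Of the 8 tested, 6 were called higher and 1 lower, with a median log2 fold change of 1.01. Of these 8, 4 passed the filter through AdCKO alone and had to be higher there, so neither that count nor the median carries weight against the background. Of the 4 with a mean of at least 10 in both groups 2 were called higher and 1 lower, beside 25.6% and 28% of all genes tested. Their log2 fold changes were 0.71 for *Casp8*, 1.39 for *Gsdmd*, -0.49 for *Txnip* and -0.14 for *Nek7*. *Gsdmd*, the pore-forming protein cut by caspase-1, rose from 30.2 ± 2.46 to 81.2 ± 12.5 (log2 fold change 1.39, SE 0.10). *Casp4*, the mouse caspase-11 gene for intracellular lipopolysaccharide, rose from 9.25 ± 0.652 to 48.9 ± 16.2 (log2 fold change 2.22). *Panx1*, a channel for ATP release, and *Aim2*, a sensor of cytosolic DNA, rose by 1.31 and 1.36 on the log2 scale. The exception was *Txnip*, a thioredoxin-binding protein also described as a ligand of NLRP3, which fell from 3652 ± 515 to 2580 ± 188 (log2 fold change -0.49, adjusted p = 0.0012), a call lost with equal library totals (-0.01), with quantile normalization, where its sign turned (0.12), and without AdCKO 1, 2 and 4. *Nek7*, which NLRP3 needs for assembly, was at 159 ± 8.92 and 145 ± 17.4 and was not called. The other 7, among them *Nlrp1a*, *Nlrp1b* and *Nlrc4*, had means below 10 in both groups.

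Of the 2 cytokine substrates of caspase-1, *Il18* reached the minimum of 10 and *Il1b* did not. *Il18* (chr9:50373473-50389942), a cytokine kept as a precursor in many cell types, was at 7.05, 8.42, 9.34, 6.96 and 7.72 in Control and at 14.5, 14.0, 16.2, 14.1 and 12.2 in AdCKO. The groups were apart, and the AdCKO libraries lay close together, at a mean of 12.3 normalized reads per library, against 6.84 in Control. Counts of so few reads would vary more, so the SE and adjusted p given next may be too small. The mean rose from 7.90 ± 0.999 to 14.2 ± 1.45 (log2 fold change 0.77, SE 0.11, adjusted p = 6.42e-05, limma).

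*Il1b* (chr2:129190316-129196856), the main secreted cytokine of the inflammasome, was at 2.84, 2.64, 3.07, 2.98 and 2.68 in Control and at 3.97, 3.30, 3.89, 4.37 and 3.18 in AdCKO. Every AdCKO library was above every Control library, but AdCKO 5 exceeded Control 3 only slightly. Means of 2.84 ± 0.184 and 3.74 ± 0.497 correspond to 3.77 and 4.97 normalized reads per library, too few for a firm statement. Without a filter the log2 fold change was 0.30 (SE 0.072, adjusted p = 0.00377, limma), and with quantile normalization in that fit it was 0.02 (adjusted p = 0.778). The 1098 genes whose higher group mean lay from 2 to 5 had a median log2 fold change of 0.18 and an interquartile range of 0.01 to 0.37 in the same fit, and 33.1% of them were called higher. The values of *Il1b* and of *Nlrp3*, whose AdCKO mean also lay from 2 to 5, were both inside that range. *Il1b* also shares 25 exon bases with the antisense gene *Gm14047*, whose reads this counting may not tell apart.

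*Il1rn* (chr2:24192380-24207011), the receptor antagonist, changed most of the 10. Its Control values were 11.7, 7.29, 9.46, 7.24 and 11.3, and its AdCKO values 84.0, 74.3, 62.1, 122 and 32.1. All AdCKO libraries were far above Control, and they differed among themselves more than for any other member, AdCKO 4 being highest and AdCKO 5 lowest. The mean rose from 9.39 ± 2.11 to 74.96 ± 32.9, a ratio of 7.99, with a log2 fold change of 2.77 (SE 0.28, adjusted p = 3.68e-06, limma). The coefficient of variation in AdCKO was 43.9% for *Il1rn*, against 10.2% to 23.3% for the other members. Within each library, the level of the antagonist per length was 2.43 to 4.21 times that of *Il1b* in Control and 10.1 to 28.0 times in AdCKO. That ratio rests on the few reads of *Il1b*.

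Another 11 genes of the IL-1 family were listed, and 10 had a row. Only 4 were tested, and 2 were called higher, *Il1r1*, the signalling receptor of IL-1, from 23.0 ± 2.82 to 71.1 ± 2.82 (log2 fold change 1.59, SE 0.086), and *Il33*, an alarmin of stromal cells, from 6.00 ± 0.581 to 12.7 ± 4.98 (log2 fold change 0.90, adjusted p = 0.00211). *Il33* lost its call with quantile normalization (log2 fold change 0.51), and it passed the filter through AdCKO alone. *Il18bp*, the soluble inhibitor of IL-18, and *Sigirr*, a decoy-like receptor, were not called, and *Il1a*, *Il1r2*, *Il1rap*, *Il18r1*, *Il18rap* and *Il1rl1* were below 10 in both groups. The median log2 fold change over the 4 was 0.61, with *Il33* among them. Of the 3 with a mean of at least 10 in both groups 1 was called higher, beside 25.6% of all genes tested. Their log2 fold changes were 1.59 for *Il1r1*, -0.28 for *Il18bp* and 0.32 for *Sigirr*.

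**Figure D2:**
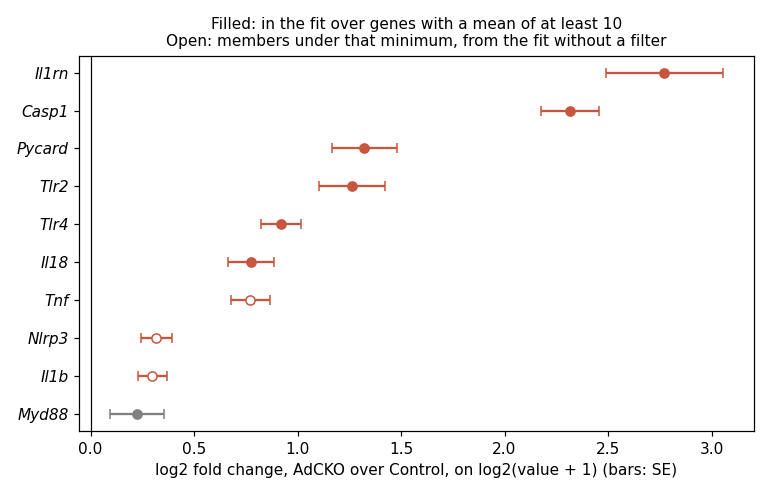
Log2 fold change, AdCKO over Control, on log2(value + 1) with its SE for each member, from limma. Filled points come from the fit over 11244 genes, open points (*Tnf*, *Nlrp3*, *Il1b*) from the fit without a filter over 15075 genes, red points passed the adjusted p threshold, and *Myd88* (grey) did not.

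Both surface toll-like receptors of the list were higher. *Tlr4* (chr4:66488845-66503830), the lipopolysaccharide receptor, was at 20.0, 16.6, 16.7, 16.2 and 15.8 in Control and at 35.9, 32.5, 31.3, 37.8 and 28.5 in AdCKO. The groups were clearly apart, and Control 1 stood above the other Control libraries. The mean rose from 17.1 ± 1.66 to 33.2 ± 3.72 (log2 fold change 0.92, SE 0.097, adjusted p = 4.76e-06, limma). *Tlr4* is 1 of the 3 members that passed the filter in both groups.

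*Tlr2* (chr3:83640194-83645530), which recognises lipoproteins with TLR1 or TLR6, was at 5.05, 6.69, 5.90, 5.64 and 4.43 in Control and at 19.8, 10.4, 14.4, 16.1 and 13.5 in AdCKO. Here AdCKO 2 was lowest and AdCKO 1 highest, and again no library crossed over. The mean rose from 5.54 ± 0.854 to 14.9 ± 3.46 (log2 fold change 1.26, SE 0.16, adjusted p = 2.20e-05, limma). The level of *Tlr2* relative to *Tlr4* overlapped between groups, at 0.253 to 0.402 in Control and 0.321 to 0.552 in AdCKO.

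A list of 13 genes covers the remaining receptors and their co-receptors. Of 11 tested, 9 were called higher and 0 lower, with a median log2 fold change of 1.57. Of these 11, 6 passed through AdCKO alone and had to be higher there, so neither that count nor the median carries weight against the background. Of the 5 with a mean of at least 10 in both groups 3 were called higher, beside 25.6% of all genes tested. They were *Unc93b1* (1.76), *Ly96* (0.55) and *Cd14* (0.36), and *Cd14* lost its call without a filter (adjusted p = 0.0127, limma). The log2 fold changes of *Tlr3* and *Tlr5* were 0.40 and -0.88. *Tlr13*, an endosomal receptor for bacterial ribosomal RNA, rose from 4.45 ± 0.722 to 31.7 ± 7.14 (log2 fold change 2.57), and *Tlr7*, for single-stranded RNA, from 4.69 ± 1.02 to 19.5 ± 3.51 (1.85). *Unc93b1*, the chaperone that carries endosomal receptors out of the endoplasmic reticulum, rose from 121 ± 33.9 to 404 ± 48.1 (1.76), and *Lbp*, which hands lipopolysaccharide to CD14, from 9.54 ± 0.852 to 54.1 ± 12.3 (2.36). *Tlr3*, the receptor for double-stranded RNA that signals without MYD88, was at 25.5 ± 3.30 and 34.1 ± 6.69 (adjusted p = 0.0199) and was not called. *Tlr5*, the flagellin receptor, was at 26.9 ± 12.1 in Control and 13.0 ± 2.23 in AdCKO, the one receptor with a lower mean, and missed the threshold (adjusted p = 0.0157).

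*Myd88* (chr9:119245106-119249158), the adaptor that these receptors and the IL-1 receptor share, was the most abundant member per length in both groups and the one tested member without a call. It was at 116, 90.0, 86.4, 99.8 and 90.5 in Control and at 143, 108, 105, 128 and 85.5 in AdCKO. The groups overlapped, since AdCKO 5 lay below all Control libraries and Control 1 above AdCKO 2 and AdCKO 3. Means of 96.5 ± 11.9 and 114 ± 22.1 gave a log2 fold change of 0.22 (SE 0.13, adjusted p = 0.148, limma) and an exact permutation p of 0.1667. With every library scaled to the same total, which shifted the median over the genes tested from -0.01 to 0.46 on the log2 scale, *Myd88* was called higher (0.70, adjusted p = 5.59e-04), and without AdCKO 1, 2 and 4 its log2 fold change was -0.02 (adjusted p = 0.922).

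Of the genes that act between MYD88 and NF-kB, 24 of 26 listed were tested, and 8 were called higher, 3 lower and 13 not called, with a median log2 fold change of 0.16. With equal library totals, under which 60.6% of all genes tested were called higher, the counts were 20 higher, 1 lower and 3 not called, and the median was 0.63. Of the 24, 2 passed the filter through AdCKO alone. Of the 22 with a mean of at least 10 in both groups 6 were called higher and 3 lower, beside 25.6% and 28% of all genes tested. *Nfkb2*, which encodes the precursor of the noncanonical subunit, rose from 39.0 ± 0.992 to 68.3 ± 8.28 (log2 fold change 0.78), and *Nfkbie*, an inhibitor of NF-kB, from 7.44 ± 1.05 to 17.5 ± 4.58 (1.11). *Tab2*, which links ubiquitin chains to the kinase TAK1, rose by 0.51 on the log2 scale. *Irak1*, a kinase recruited by MYD88, fell from 350 ± 24.01 to 181 ± 22.4 (log2 fold change -0.95, adjusted p = 2.2e-06), and it was called lower under every alternative run. *Map3k7*, the gene of TAK1, fell by 0.33 and *Tirap*, which brings MYD88 to TLR2 and TLR4, by 0.42 on the log2 scale, and both lost the call, with signs turned (0.15 and 0.04), when every library was scaled to the same total. *Map3k7* also missed the threshold with the replicate block (adjusted p = 0.0103) and without AdCKO 1, 2 and 4 (adjusted p = 0.034). *Traf6*, *Irak4* and *Ticam1* differed by at most 0.10 on the log2 scale and were not called.

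*Tnf* (chr17:35336312-35338952), a cytokine made downstream of NF-kB, was at 3.93, 3.62, 4.30, 3.62 and 4.30 in Control and at 8.82, 6.05, 7.49, 8.20 and 6.94 in AdCKO. No AdCKO library came near the Control range. Means of 3.95 ± 0.341 and 7.50 ± 1.08 kept it below the minimum of 10, at 6.35 and 12.04 normalized reads per library. In the fit without a filter the log2 fold change was 0.77 (SE 0.093, adjusted p = 2.64e-05, limma), and with quantile normalization it was 0.41 (adjusted p = 0.00134), so that this low member kept its call under both. Of the 937 genes whose higher group mean lay from 5 to 10, 37.6% were called higher in the fit without a filter, with a median log2 fold change of 0.26 and an upper quartile of 0.63. Over all 3831 genes with both means below 10 the share called higher was 24.5%.

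Of 11 genes of the TNF axis, 10 were tested, 7 were called higher and 0 lower, with a median log2 fold change of 0.53, beside 25.6% of all genes tested called higher. The 7 were all among the 9 with a mean of at least 10 in both groups. *Tnfrsf1b*, the second TNF receptor, rose from 16.0 ± 5.47 to 78.8 ± 11.3 (log2 fold change 2.27), and *Tnfrsf1a*, the widely expressed first receptor, from 397 ± 31.4 to 554 ± 22.2 (0.48). *Ripk3*, a kinase of necroptosis, rose from 14.5 ± 2.97 to 30.6 ± 5.45 (1.03), and *Adam17*, the protease that sheds TNF, from 76.1 ± 6.76 to 113 ± 6.52 (0.57). Without AdCKO 1, 2 and 4, the 3 libraries with muscle markers, 4 genes of this list were called higher. That fit kept only AdCKO 3 and AdCKO 5 and called 18.8% of all genes tested higher, against 25.6% in the main fit.

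**Figure D3:**
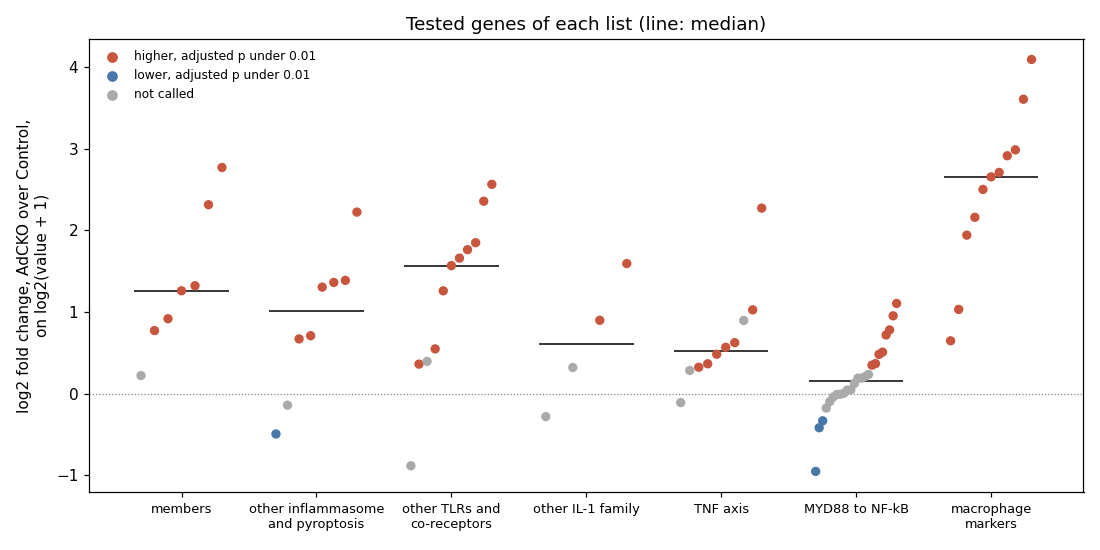
Log2 fold change, AdCKO over Control, on log2(value + 1) of each tested gene of the members, of 5 pathway lists and of the macrophage markers, with the list's median as a line. Red genes were called higher, blue lower and grey not called, and most genes from MYD88 to NF-kB lie near 0. The medians include genes that passed the filter through AdCKO alone, which had to be higher there.

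Ranked by level per length, the Control order was *Myd88*, *Tlr4*, *Casp1*, *Il1rn*, *Il18*, *Pycard*, *Tlr2*, *Tnf*, *Il1b* and *Nlrp3*. In AdCKO it was *Myd88*, *Casp1*, *Il1rn*, *Tlr4*, *Pycard*, *Tlr2*, *Il18*, *Tnf*, *Il1b* and *Nlrp3*. In Control the ranges of *Tlr4* and *Casp1* overlapped, as did those of each neighbouring pair from *Il1rn* to *Tlr2*. In AdCKO each neighbouring pair from *Myd88* to *Tlr4* overlapped, and so did those from *Pycard* to *Il18*. The last 3 places were the same in both groups, with ranges apart.

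One AdCKO library was often the lowest. AdCKO 5 was the lowest of its group for 8 of 10 members, all but *Tlr2* and *Tnf*, for which AdCKO 2 was lowest. AdCKO 1 was highest for 5 members and AdCKO 4 for 4. AdCKO 5 also had the lowest sum of macrophage markers, 8413, although AdCKO 2, with the highest sum, 11530, was highest for none of the members. In Control, Control 3 had the highest macrophage sum, 2315, and was highest for *Pycard*, *Casp1*, *Il1b* and *Il18*.

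After the group means were subtracted, the deviations of *Casp1* and *Pycard* correlated with r = 0.89 over the 10 libraries, and those of *Tlr4* and *Myd88* with r = 0.89 as well. *Il1rn* followed *Tlr4* (r = 0.81) and *Myd88* (r = 0.75) more than *Casp1* (r = 0.55), and *Tlr2* reached at most 0.40 with any member. For *Il1rn*, *Tlr4* and *Myd88* alike, Control 1 was the highest Control library and AdCKO 5 the lowest AdCKO library. How far their correlations rest on these libraries was not tested. The tested genes most like *Casp1* by this measure were *Alox5ap* (r = 0.987), the activating protein of leukotriene synthesis, and *Lcp1* (r = 0.978), the leukocyte actin bundler. For *Pycard* they were *Sap30* (0.964) and *Cd180* (0.946), for *Il18* *Slc7a8* (0.953) and *Gca* (0.937), and for *Il1rn* *D1Ertd622e* (0.935) and *Spp1* (0.931), the gene of osteopontin. For *Tlr2* they were *Frmd4a* (0.978) and *Lrig3* (0.917), for *Tlr4* *Asb13* (0.932) and *Serinc5* (0.932), and for *Myd88* *Asb13* (0.936) and *Slc25a30* (0.925). Each is the highest over the genes tested, across 10 libraries whose makeup differs, as the marker sums show, and is given as a description.

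The members were also set beside the macrophage markers of the same library, whose mean sum was 8.23 times as high in AdCKO. Divided by that sum, 9 of 10 members were lower in every AdCKO library than in every Control library, and *Il1rn* overlapped. Since 96.3% of all 15075 genes were lower without overlap on this scale, the count follows from the divisor and says nothing particular of the members. *Myd88* stood at 3.73% to 16.5% of the sum in Control and 0.940% to 1.47% in AdCKO. *Tlr4* went from 0.722% to 2.84% in Control to 0.282% to 0.369% in AdCKO, and *Il1b* from 0.132% to 0.404% to 0.0286% to 0.0432%. *Casp1* came closest among those apart, at 0.880% to 1.77% in Control and 0.678% to 0.864% in AdCKO. *Il1rn* covered 0.409% to 1.66% in Control and 0.382% to 1.07% in AdCKO. Against the mean log2 level of the markers, which weights *Lyz2* no more than the others, *Casp1* also overlapped, with a group difference of -0.16, and for *Il1rn* the difference turned to 0.29. Which cells the reads of a member came from was not measured, and these shares are no estimate of a level per macrophage.

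**Figure D4:**
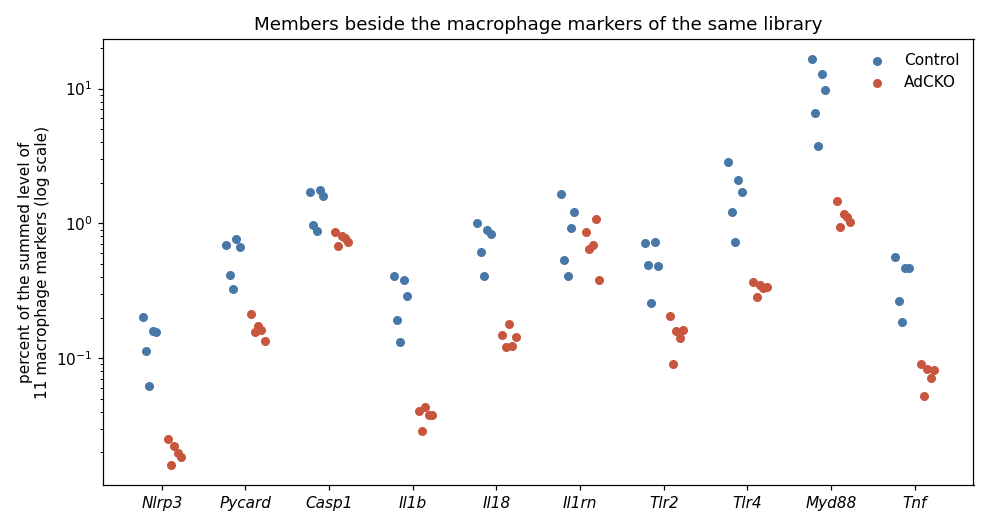
Level of each member as a percent of the summed level of 11 macrophage markers in the same library (log scale), for 5 Control (blue) and 5 AdCKO (red) libraries. Red points lie below all blue points for every member but *Il1rn*, whose ranges overlap.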

How the data were processed

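RNA from iBAT of 5 Control and 5 AdCKO mice was poly(A)-selected, sequenced, aligned with STAR to mm9, counted in exons with iRNA-seq and normalized with DESeq2 by the authors, with versions not given in the sources used here. The authors deposited the signal of each gene as DESeq2-normalized reads divided by its counted exon length in kb. Whether the values were transformed further is not given in the sources used here. No value is 0 and the values could not be turned back into whole reads (at best 22.9% to 24.3% of low values lay within 0.1 of a whole number, against 20.0% by chance), so no count test was run on them, as had been planned, and the depth of each library is unknown. After normalization the exonic totals were 7615403 to 8171138 in Control and 5419800 to 5843024 in AdCKO. The deposited table and 2 lists derived from it also hold the authors' own group means, fold changes and adjusted p-values, which were not used.

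Groups and mouse numbers came from the labels, which give no sex. Each library came from a separate mouse per the labels. limma 3.58.1 (R 4.3.3, trend) was fitted on log2(value + 1) to genes with a mean of at least 10 in either group, with Benjamini-Hochberg adjustment and a threshold of 0.01. Single values were compared with exact two-sided permutation tests. The script was tested on simulated data. Members and lists were chosen with earlier results of these data known. Named were all members, *Crls1*, up to 4 called genes of smallest p from each pathway list with every call against its list's majority, and for each tested member the 2 genes with the highest Pearson r. Nek7, Tlr3, Tlr5 and other genes without a call, and the called genes Casp8, Cd14 and Ly96, were named after their values were seen. Alternatives were pseudocounts of 0.1 and 10, other filters, equal totals, quantile normalization, limma without or with a robust trend, a threshold of 0.05, the replicate number as a block and each library left out. Fits without AdCKO 1, 2 and 4, and scaling alternatives without a filter for *Nlrp3*, *Il1b* and *Tnf*, were added after seeing the data. Promoters of 9 of the 10 members were in the RefSeq table (GRCm38) and were placed on mm9 by exact match.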

Additional observations from a re-analysis of the deposited data

Results flagged for a closer look

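One value among the members stood apart from its group. For *Tlr4* in Control, Control 1 was the highest library at 19.96 normalized reads per kb, and its gap to the next library was 0.785 of the group's whole range, above Dixon's 95% critical value of 0.71 for 5 samples. With 20 member groups examined, about 1 in 20 is expected to be picked out by chance. Without Control 1 and with each other library left out in turn, the log2 fold change of *Tlr4* ranged from 0.87 to 0.97 and was called higher each time.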

How the results depend on the processing

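The 6 members called higher were called higher under each of the 10 alternatives with all libraries, with each of the 10 libraries left out, and without AdCKO 1, 2 and 4. *Il18* had the smallest value among them, 0.38 with quantile normalization (adjusted p = 0.00718). *Myd88* was called only with equal totals (0.70) and had a log2 fold change of -0.0181 without AdCKO 1, 2 and 4. Without a filter, *Nlrp3* (0.18) and *Il1b* (0.02) lost their calls with quantile normalization. Equal totals gave 6811 genes called higher and 1098 lower, so that 86.1% of calls were higher against 47.7% in the main fit. Quantile normalization gave 2526 and 3498 (41.9%), and without AdCKO 1, 2 and 4 the counts were 2083 and 2191.

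Counts of called list genes moved most, relative to their size, as follows. Other inflammasome genes called higher were 13 of 15 without a filter, where 24.7% of all 15075 genes were called higher. Of the 15, 7 had means below 10 in both groups. Among genes whose higher group mean lay from 1 to 10, 31.4% were called higher without a filter. Other inflammasome genes called lower were 0 with equal totals, with quantile normalization and without AdCKO 1, 2 and 4. Other toll-like receptor genes called lower were 1 with quantile normalization and at a threshold of 0.05, and 0 to 1 with each library left out, the 1 without Control 5. Genes from MYD88 to NF-kB called higher were 20 with equal totals and 5 without AdCKO 1, 2 and 4, and those called lower were 1 with equal totals. Other IL-1 family genes called higher were 4 of 10 without a filter, beside the same 24.7% of all genes. They were 1 when the mean over all libraries had to reach 10, with quantile normalization and without AdCKO 1, 2 and 4. TNF axis genes called higher were 4 without AdCKO 1, 2 and 4. Smaller moves are not all listed. With quantile normalization, TNF axis genes called higher were 5, other toll-like receptor genes 7 and other inflammasome genes 5. With equal totals the counts were 9, 10 and 7 in the same order. More genes were tested without a filter. Of the other IL-1 family genes 3 were tested, in place of 4, with the mean over all libraries and without AdCKO 1, 2 and 4. With equal totals 60.6% of all genes tested were called higher. The cause of the other moves was not tested. Beside the mean log2 of the macrophage markers, *Il1rn* was higher by 0.29 in AdCKO, where its share of their sum was lower.

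The mouse numbers did not pair the libraries: same-numbered libraries correlated at -0.27 to 0.10 in their deviations from the group means. With the replicate block, 6 members were called higher, *Myd88* had a log2 fold change of 0.22 (adjusted p = 0.0432), and 2592 genes were called higher and 2838 lower. Depth is unknown, and differences of *Nlrp3*, *Il1b*, *Tnf* and *Il18*, with 12.3 or fewer normalized reads per library on average, rest on the fewest reads.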
